A study of Mus musculus with 3 samples.

Results

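Venous endothelium of the mouse lung was described here from droplet RNA sequencing of lung cells and lung nuclei. Barcodes were selected on their measured UMIs and taken as venous when they held at least 2 UMIs of Vwf (a UMI is a tagged single transcript molecule), at least 1 UMI in at least 3 of the 9 genes Slc6a2, Prss23, Cytl1, Ano2, Selp, Vegfc, Samd5, Car8 and Bst1, and no UMI of Gja5 or Dkk2. The rule found 799 of 28589 barcodes, with 463 in the cell library, 197 in nucleus replicate 1 and 139 in nucleus replicate 2. Both preparations came out of wild type C57Bl/6J lung. Cells were released from fresh lung with collagenase and DNAse and cleaned on an Optiprep gradient, and nuclei were taken out of snap-frozen lung of adult animals in Nuclei EZ Lysis buffer. No age is given for the animals of the cell library. Fresh or frozen tissue and the preparation therefore cannot be told apart. The labels name no separate animals, so p-values speak only of how much these libraries varied, and part of that may be technical.

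Blood leaves the gas exchange surface of the lung through venules and pulmonary veins. Their endothelium stores von Willebrand factor and P-selectin in Weibel-Palade bodies, organelles that release their content on stimulation, and lets leukocytes attach and cross. The nuclear receptor COUP-TFII, encoded by Nr2f2, keeps Notch signalling low in veins, whereas Notch ligands, Sox17 and ephrin-B2 mark arteries, and ephrin-B2 binds the venous receptor EphB4. Slc6a2 encodes the noradrenaline transporter, with which lung endothelium clears circulating noradrenaline.

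Levels are CPM, each gene's count divided by the total and scaled to 1e6, of the counts summed over a set of barcodes in 1 library, in the order cells, nucleus replicate 1 and nucleus replicate 2 unless another is named. Venous barcodes had a median of 2895 UMIs in cells and of 4516 and 2481 in the nucleus libraries, and their counts summed to 1395764, 860794 and 375788 UMIs. The median share of ribosomal protein transcripts was 5.11% in venous cells, against 0.817% and 0.916% in venous nuclei. Mitochondrial transcripts took 1.92% in cells, against 0.273% and 0.246% in nuclei. Xist, the RNA of the inactive X chromosome and a transcript of female cells, stood at 338 CPM in venous cells and at 1010 and 13.3 CPM in venous nuclei of replicates 1 and 2. The libraries thus differed in this marker of female cells, and so did the nucleus libraries from each other. The comparison of cells with nuclei took no account of it, and its measure of spread rests on the nucleus libraries. The libraries shared 21 to 24 barcode sequences with each other, none of them venous.

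The genes of the rule chose the barcodes, so their levels are a description with no test. Vwf had 2337, 3057 and 2776 CPM, with a median of 6, 12 and 6 UMIs per venous barcode. Slc6a2 had 682 CPM in cells and 1379 and 540 CPM in nuclei, and was seen in 74.5% of venous cells and in 86.8% and 59.0% of venous nuclei. Among B cell barcodes, which should lack it, 1.58% of cells and 5.04% and 1.07% of nuclei had a UMI of Slc6a2, at median depths of 2949, 2497 and 1413.5 UMIs. Since Slc6a2 helped to pick the venous barcodes, this gap is in part set by the rule.

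Of the other rule genes 4 had a higher level in cells than in both nucleus libraries and 3 a lower one, with Car8 in between. Prss23, a secreted serine protease, had 650 CPM in cells against 69.7 and 93.2 CPM in nuclei, and Selp, P-selectin, had 216 CPM against 19.8 and 42.6 CPM. Cytl1, a small secreted protein, had 183 CPM in cells against 15.1 and 5.32 CPM, and Ano2, a calcium-gated chloride channel, 258 CPM against 69.7 and 69.2 CPM. Vegfc, the growth factor of lymphatic vessels, went the other way with 681 CPM in cells against 1938 and 1714 CPM in nuclei. Samd5 had 606 CPM in cells against 1079 and 961 CPM in nuclei. Car8, a carbonic anhydrase relative that binds the IP3 receptor, had 242 CPM in cells, between the 199.8 and 623 CPM of the nuclei, and Bst1, a surface enzyme that makes cyclic ADP-ribose, had 76.0, 80.2 and 90.5 CPM. Prss23 was seen in 79.5% of venous cells and in 24.4% and 21.6% of venous nuclei, and Samd5 in 78.0% of cells and in 93.9% and 90.6% of nuclei, so cells and nuclei met the rule through genes in different proportions. Of venous cells 123 had exactly 3 of the 9 genes, as had 79 and 60 nuclei, and 155 cells and 136 and 95 nuclei stayed outside with 2 of the 9. With 1 Vwf UMI, 63 cells and 15 and 16 nuclei stayed outside, and 14 cells and 18 and 19 nuclei stayed outside for a UMI of Gja5 or Dkk2.

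The label was checked against markers outside the rule. At least 3 of 8 common endothelial genes were seen in 99.4% of venous cells and in 99.5% and 97.1% of venous nuclei. The same was true of 53.5% of B cell barcodes of the cell library and of 51.1% and 35% of those of nuclei. Whether this came from free RNA, from doublets or from another source was not tested. Pecam1, an adhesion molecule of all endothelium, had 999.1, 896 and 716 CPM in venous barcodes, against 425, 883 and 590 CPM in B cells, and Cdh5, VE-cadherin, 659, 245 and 248 CPM against 190, 98.9 and 88.0 CPM. Prox1, which defines lymphatic endothelium, had 5.02, 2.32 and 2.66 CPM, but the 10 lymphatic genes summed to 593, 344 and 287 CPM in venous barcodes, against 243, 193 and 153 CPM in the stricter capillary set described further on. That set allowed no UMI of Prox1, a condition the venous rule lacks, so this gap may in part be set by the gates. Pf4, which defines the megakaryocytes and platelets that also make Vwf, had 6.45, 6.97 and 5.32 CPM, and the whole megakaryocyte list of 14 genes summed to 204, 110 and 98.5 CPM, with 4, 8 and 9 of its genes at 0. Myh6 of the cardiac muscle that sheathes pulmonary veins had 0, 3 and 0 counts. The 9 cardiac genes summed to 36.6, 39.5 and 39.9 CPM. The levels of the main markers are drawn in the plot of markers by barcode set.

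**Figure D1:**
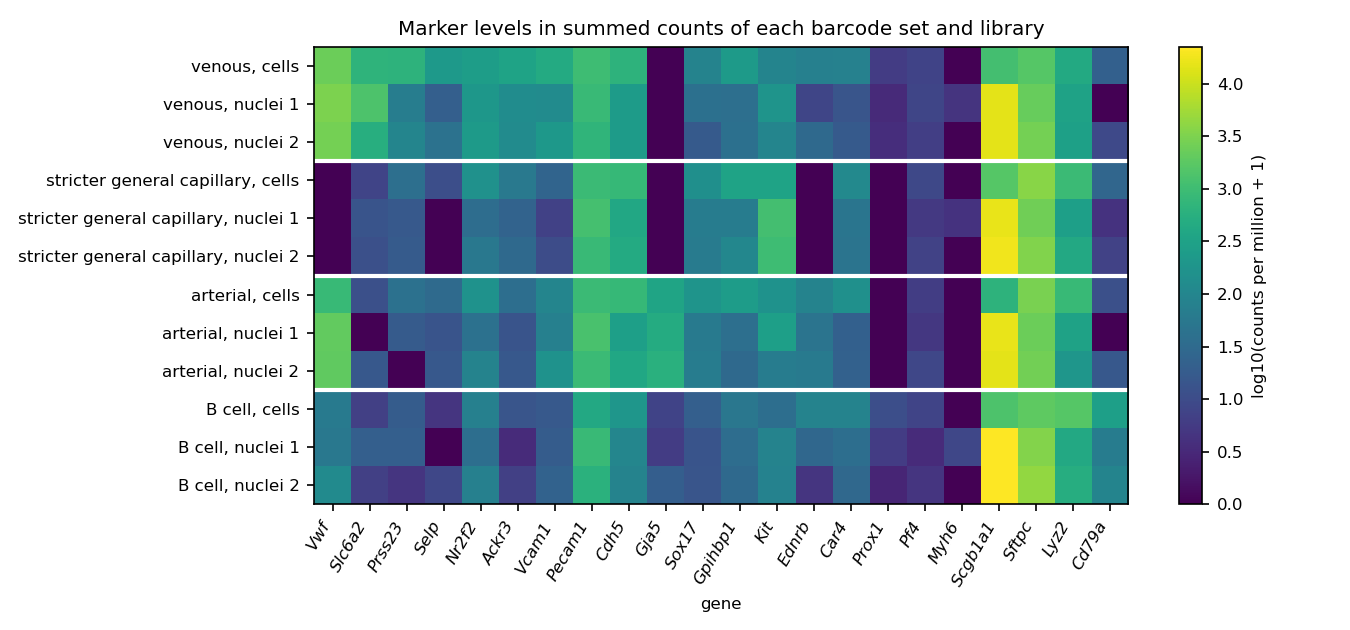
Levels of marker genes (columns) in the counts summed over venous, stricter general capillary, arterial and B cell barcodes (rows, each in cells, nuclei 1 and nuclei 2), as log10(CPM + 1). Vwf and Slc6a2 are high in venous rows, where the rule put them, while the club cell transcript Scgb1a1 is high in every nucleus row, at 14613 and 15176 CPM in venous nuclei.

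The venous share was 3.88% among cells (95% interval 3.54 to 4.24%, exact), 2.88% of nucleus replicate 1 (2.49 to 3.30%) and 1.42% of nucleus replicate 2 (1.19 to 1.67%). The intervals cover counting error only, and with 1 cell library the difference was not tested. The share depends on depth, since a deep barcode meets the rule more easily. Thinned to 1000 UMIs, 1.37% of cells and 0.906% and 0.628% of nuclei met it, in the same order. Slc6a2 split the members, with 345 of 463 venous cells and 171 of 197 and 82 of 139 venous nuclei holding a UMI. Of 42 other list genes with at least 30 UMIs in each library, 0 differed over 1.5-fold in the same direction in all 3 libraries between members with and without Slc6a2. The 42 include Vwf, Prss23, Vegfc, Samd5, Car8 and Bst1 of the rule, whose levels in these members are in part set by the rule. Also among the 42, Efnb2 and Mecom, of the arterial list, are given since their values stood out once seen. Efnb2, ephrin-B2, had 128, 95.9 and 83.9 CPM in members with Slc6a2 and 175, 454 and 255 CPM in those without it. Mecom had 250.3, 682 and 1016 CPM in members with Slc6a2 and 335, 2415 and 1862 CPM in those without it. Both genes were thus higher without Slc6a2 in all 3 libraries, by less in cells, which was not tested. Vcam1, a leukocyte adhesion molecule, had no such order, with 535, 112 and 219 CPM in members with Slc6a2 and 223, 218 and 192 CPM in those without it.

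In venous cells against venous nuclei, most tested immediate early, heat shock, ribosomal protein and mitochondrial genes were higher in cells. All tested airway genes were lower in cells, as were Mecom and Myrip. Of 10585 genes tested outside the rule, edgeR called 1421 higher in cells (13.4%) and 465 lower (4.39%), and DESeq2 called 329 higher and 25 lower. These calls are fragile. With 1 residual degree of freedom, edgeR treated the spread as the same for all genes at a given level, and took the single cell library to be as variable as the nuclei. Under a gate of at least 1 Vwf UMI edgeR called 0 genes, with 1876 higher and 727 lower at an unadjusted p under 0.05. Without the filter on low counts it also called 0, with 1838 higher and 590 lower at an unadjusted p under 0.05, and under a gate of at least 4 of the 9 genes it called 265. For the genes described here, those that DESeq2 did not call are named as such. DESeq2 gave an adjusted p for 6887 genes, so its calls per list often rest on fewer genes than those of edgeR.

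Immediate early genes, which are transcribed within minutes of a stimulus, were 5 of the 12 genes with the largest rise in venous cells. Egr1, a zinc finger factor of this response, had 1438 CPM in cells and 9.29 and 23.96 CPM in nuclei, a log2 fold of 6.64 (SE 0.54, edgeR adjusted p = 5.2e-31, DESeq2 6.46e-21). Junb had 1537 CPM in cells against 13.9 and 26.6 CPM in nuclei, and Ier3, an early gene that limits cell death, 804 CPM against 24.4 and 63.9 CPM. Of the list of 41 genes 38 were tested, and edgeR called 31 higher in cells and 0 lower, against 13.4% and 4.39% of all genes tested. DESeq2 gave an adjusted p for 34 of them and called 22 higher. The median log2 fold of the 38 genes was 3.65, against a median over all genes of -0.01. Fos had 802 UMIs in venous cells and 3 in venous nuclei, a ratio of 237 with a counting interval of 80.8 to 1151, and edgeR called it while DESeq2 did not (adjusted p = 0.351). Fosb had 618 UMIs against 3, a ratio of 182 (62.2 to 888), and Atf3 251 against 2, a ratio of 111 (30.5 to 923). Nr4a3 had 157 against 1, a ratio of 139 (24.6 to 5530). The Krüppel-like factors Klf2 and Klf4, which shear stress induces in endothelium, had 563 and 461 CPM in cells. In nuclei Klf2 had 114 and 138 CPM and Klf4 69.7 and 95.8 CPM, and both were called by either tool.

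Heat shock genes moved the same way, with 14 of 16 tested genes called higher by edgeR, against 13.4% of all genes, and 6 by DESeq2. Their median log2 fold was 2.00. Hspa1a, the stress-induced HSP70, had 108 UMIs in venous cells and 0 in venous nuclei, which is at least 31.9-fold higher against a floor of 3 counts over both nucleus libraries. Hsp90ab1, a constitutive HSP90 chaperone, had 826 CPM in cells and 119 and 114 CPM in nuclei. Of 93 ribosomal protein genes edgeR called 82 higher, and DESeq2 called 73 of the 85 to which it gave an adjusted p. All 11 mitochondrial transcripts tested were called higher by both tools. Malat1, a long non-coding RNA of the nucleus, had 13656 CPM in venous cells and 22380 and 23116 CPM in venous nuclei and was not called (log2 fold of -0.67, edgeR adjusted p = 0.534). Genes called higher in cells were short, with a median span in the genome of 10414 bases against 31522 bases for all tested genes and 67847 bases for those called lower. The part of transcript length or of intron counting in these folds was not tested.

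Of 18 tested genes of the adhesion and recruitment list edgeR called 8 higher in cells and 0 lower, against 13.4% and 4.39% of all genes, and DESeq2 called 4 higher. Icam1, a ligand of leukocyte integrins, had 461 CPM in cells and 63.9 and 79.9 CPM in nuclei, a log2 fold of 2.76 (SE 0.42, edgeR adjusted p = 6.59e-09, DESeq2 0.00026). Icam2, its constitutive relative, had 236 CPM in cells against 36.0 and 58.6 CPM in nuclei, and both tools called it. Vcam1 had 451 CPM in cells against 125 and 208 CPM in nuclei, and the atypical chemokine receptor Ackr3 had 328 CPM against 129 and 122 CPM. For Vcam1 edgeR gave an adjusted p of 0.00313 and DESeq2 0.124, and for Ackr3 edgeR gave 0.00574 and DESeq2 0.179, so both calls rest on the tool. The NF-kappaB targets Tnfaip3 (148 CPM in cells, 5.81 and 5.32 CPM in nuclei) and Nfkbia (295 CPM in cells, 45.3 and 66.5 CPM in nuclei) were called by both. Sele, E-selectin, was near the floor with 11 UMIs in venous cells and 13 and 0 in venous nuclei. Ackr1, the Duffy receptor of venules elsewhere in the body, had 16 UMIs in cells and 1 in each nucleus library.

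Of 21 tested genes of the Weibel-Palade list edgeR called 3 higher (against 13.4% of all genes) and 2 lower, with a median log2 fold of -0.08, and DESeq2 called 0 higher and 1 lower, so the share higher is near that of all genes. Of 15 clotting genes edgeR called 5 higher and 1 lower, against 13.4% and 4.39% of all genes, and DESeq2 1 higher and 0 lower. Thbd, thrombomodulin, which turns thrombin into an anticoagulant, had 955 CPM in cells and 177 and 104 CPM in nuclei, a log2 fold of 2.78 (SE 0.44, edgeR adjusted p = 1.91e-08, DESeq2 0.000103). Entpd1, the ectonucleotidase CD39 that removes ADP, had 540 CPM in cells against 1896 and 1075 CPM in nuclei, and only edgeR called it (adjusted p = 0.0424, DESeq2 0.123). Rab27a and its partner Myrip tether Weibel-Palade bodies to actin before release. Rab27a had 121 CPM in cells against 518 and 256 CPM in nuclei, and Myrip 152 CPM against 929 and 381 CPM. Myrip was called lower in cells by both tools, with a log2 fold of -2.09, and Rab27a by edgeR (adjusted p = 0.00516) and not by DESeq2 (0.118).

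Endothelial identity genes differed in how much the preparations read them. Cldn5, the tight junction protein claudin-5, had 805 CPM in cells and 66.2 and 95.8 CPM in nuclei (log2 fold of 3.40, edgeR adjusted p = 3.61e-12), and Ramp2, the adrenomedullin co-receptor, 518 CPM against 191 and 117 CPM, which DESeq2 did not call (adjusted p = 0.055). Of 21 tested pan-endothelial genes edgeR called 6 higher in cells and 0 lower, against 13.4% and 4.39% of all genes, and DESeq2 called 2. The BMP targets Id1, Id2 and Id3, inhibitors of basic helix-loop-helix factors, were called higher by edgeR with log2 folds of 1.83, 2.63 and 3.10, and DESeq2 called Id2 and Id3 but not Id1 (adjusted p = 0.181). Adamts1, a protease of the matrix, had 231 CPM in cells and 13.9 and 15.97 CPM in nuclei. Mecom, a transcription factor, had 273 CPM in cells against 904 and 1379 CPM in nuclei and was called lower in cells by both tools, with a log2 fold of -1.98. Nr2f2 had 261, 199.8 and 234 CPM and was not called (log2 fold of 0.33, edgeR adjusted p = 0.613).

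Transcripts of other lung cells differed between the preparations inside venous barcodes. Scgb1a1, the club cell secretoglobin, had 1142 CPM in venous cells and 14613 and 15176 CPM in venous nuclei, and B cell barcodes held 1392, 22389 and 22466 CPM of it. Cyp2f2, a club cell enzyme, had 10.8 CPM in cells against 323 and 503 CPM in nuclei. All 7 airway genes were called lower in cells by edgeR, against 4.39% of all genes. DESeq2 called 4 of the 5 to which it gave an adjusted p. The 7 genes summed to 1225 CPM in venous cells against 15459 and 16211 CPM in venous nuclei. Of 8 genes of type 2 pneumocytes, the surfactant cells, edgeR called 6 lower and DESeq2 1, and the list summed to 2094 CPM against 3172 and 4198 CPM. Immune genes went the other way, with 8 of 13 called higher by edgeR, against 13.4% of all genes. DESeq2 called 4 of the 7 to which it gave an adjusted p. The immune list summed to 2678 CPM in cells against 540 and 799 CPM in nuclei. Cd74, the invariant chain of MHC class II, made up much of this with 1409 CPM against 120 and 237 CPM. Their part in the folds of other genes was not tested.

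**Figure D2:**
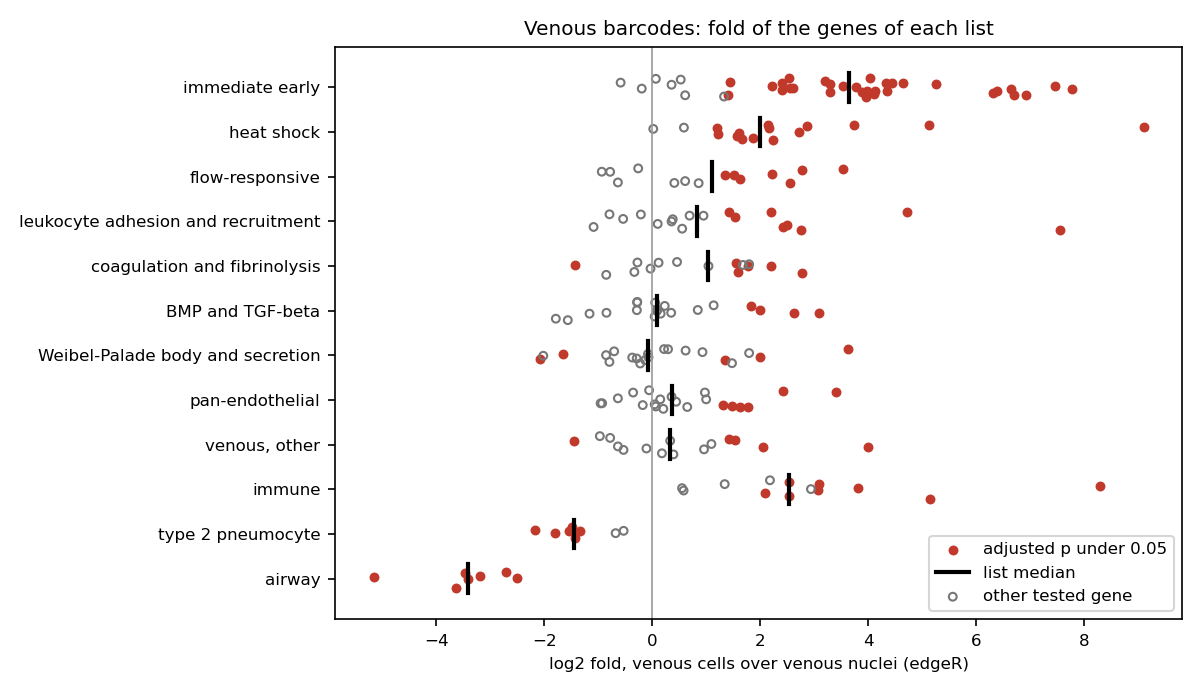
Log2 fold of venous cells over venous nuclei (horizontal axis, edgeR) for each tested gene of several lists (rows), with genes at an adjusted p under 0.05 filled and the list median as a bar. The median of the immediate early genes is 3.65 and that of the Weibel-Palade list is -0.08, while all 7 airway genes lie below 0.

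Several genes that led in venous cells are best known from other tissues. Mep1a, the gut metalloprotease meprin, had 162 UMIs in venous cells and 0 in venous nuclei, at least 47.9-fold higher against the floor of 3 counts. Rtn2, a reticulon of the endoplasmic reticulum, had 120 UMIs against 0, at least 35.4-fold higher. Muc13, a mucin of the gut surface, had 305 UMIs against 1, a ratio of 270 with a counting interval of 48.1 to 10710. Iqcn had 411 UMIs against 2, and Zan, a sperm protein, 158 against 1. Col19a1, a collagen, had 261 against 2, both of them in nucleus replicate 2, and DESeq2 did not call it (adjusted p = 0.392). In the GENCODE annotation of GRCm38 Iqcn starts 2841 bases after the end of Jund on the same strand of chromosome 8, and Jund had 406 CPM in venous cells and 23.2 and 31.9 CPM in venous nuclei. Muc13 starts 22461 bases after Heg1 on chromosome 16, and Heg1, an endothelial mucin-like receptor, had 1393, 3402 and 2369 CPM. Of the rule genes, Ano2 starts at base 125690419 of chromosome 6, after the end of Vwf at base 125686679 on the same strand. Whether reads of these neighbours were counted for Iqcn, Muc13 or Ano2 was not tested.

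Venous endothelium was then set against general capillary endothelium of the same libraries. General capillary barcodes were taken as those with no UMI of Vwf, Gja5, Dkk2, Ednrb or Prox1 and with at least 3 of 8 capillary genes, which gave 2654 cells and 1415 and 1172 nuclei. This set held other cells too. Lyz2, a macrophage lysozyme, had 432 CPM in venous cells and 3677 CPM in that set. With it edgeR called 445 of 12506 genes higher in venous (3.56%) and 660 lower (5.28%), or 8.84% in all. A stricter set, chosen after this was seen, asked for at least 3 of the 6 genes Gpihbp1, Kit, Aplnr, Plvap, Sema3c and Cd93 and for at least 4 of 6 common endothelial genes. It held 1128 cells and 587 and 276 nuclei, and Lyz2 had 911 CPM in its cells. Against it, 296 of 10119 genes were higher in venous (2.93%) and 177 lower (1.75%), or 4.67% in all, by edgeR with the library as a block. Of the 296 genes 225 were also called higher against the first set (76.0% of the 296 and 50.6% of the 445), and of the 177 lower 46 (26% of the 177 and 6.97% of the 660). Of the 296 and 177 genes, 286 and 165 had the same sign against the first set, so the set moved the calls more than the direction, and the values below are against the stricter one. Leaving out nucleus replicate 1 or 2 left 226 or 265 calls in all. Rule genes of either set are not counted. The genes compared were not used to pick the barcodes, but the barcodes were picked for known venous and capillary markers, with earlier results of these data known.

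Of 13 other venous genes tested, 12 were higher in venous and 0 lower, against 2.93% of all genes. The list was chosen with earlier results of these data known, so this count is no independent check of the label. Vcam1 had 451, 125 and 208 CPM in venous barcodes and 24.2, 5.92 and 9.21 CPM in general capillary ones, a log2 fold of 4.27 (SE 0.16, edgeR adjusted p = 5.08e-08), and the sets did not overlap. Ackr3, which scavenges CXCL12, had 328, 129 and 122 CPM against 56.4, 22.8 and 29.2 CPM (log2 fold of 2.42, adjusted p = 2.18e-06). Nrp2, a co-receptor of VEGF-C, had 187, 138 and 295 CPM against 57.5, 14.4 and 53.7 CPM (log2 fold of 2.29, adjusted p = 0.000157). Venous levels of these 3 genes lay above capillary levels in each library. Nr2f2 had 261, 199.8 and 234 CPM in venous barcodes against 158, 34.7 and 55.3 CPM (log2 fold of 1.57, edgeR adjusted p = 0.00589). Ephb4 rose least, with a log2 fold of 0.65, and DESeq2 did not call it (adjusted p = 0.0644), nor Adgrg6. The surface protein gene Amigo2, Cpe (carboxypeptidase E), Csrp2, Il1r1 (the interleukin-1 receptor), Lepr (the leptin receptor), Adgrg6 and Eln were the other members called. Tmem252 was higher by 1.21 on the log2 scale and missed the threshold (adjusted p = 0.0815).

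The 12 genes with the largest rise over capillary were led by Lhx6, a LIM homeobox transcription factor known from interneurons. Lhx6 had 50.2, 69.7 and 93.2 CPM in venous barcodes and 1.19, 1.69 and 0 CPM in general capillary ones, a log2 fold of 5.52 (SE 0.36, edgeR adjusted p = 4.51e-06). Rarb, a retinoic acid receptor, had 182, 139 and 540 CPM against 18.8, 8.04 and 62.9 CPM (log2 fold of 3.39), and Zfpm2, a GATA cofactor, 295, 611 and 740 CPM against 47.7, 15.2 and 67.5 CPM. Dnm3, a dynamin of membrane fission, had 653, 912 and 1328 CPM against 69.2, 99.0 and 79.8 CPM (log2 fold of 3.41), and Chn2, a Rac GTPase activator, 482, 755 and 721 CPM against 56.4, 41.9 and 44.5 CPM. The rule for these genes asked for 1 direction in every library. Tll1, a tolloid protease that processes matrix and BMP inhibitors, had 208, 343 and 1224 CPM against 16.1, 28.4 and 99.8 CPM (log2 fold of 3.60, adjusted p = 5.08e-08). Tmem45a, Mmp16 (a membrane-anchored matrix metalloprotease), Cpe, Vcam1, Lpcat2 (which makes platelet-activating factor) and Sorbs2 completed the 12, with log2 folds of 3.47 to 4.54.

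Promoters were looked up for these 12 genes in RefSeq sequences of GRCm38.p6, from 250 bases before to 50 bases after a start, since the genes rose together. Of the 12 genes 8 matched, with 15 promoters. The promoters of Lhx6, a regulator, Tll1, a secreted protease, and Rarb, a receptor, are shown as leading genes with a distinct role each. Lhx6 has 3 promoters in the table, and only the one with AGGAAG is shown, while 9 of the 15 hold none. Capitals mark AGGAAG, the core bound by ETS factors, or AGGTCA, the nuclear receptor core motif that NR2F proteins bind, on either strand (CTTCCT and TGACCT on the other strand).
Lhx6, minus strand, chr2:36105359-36105658: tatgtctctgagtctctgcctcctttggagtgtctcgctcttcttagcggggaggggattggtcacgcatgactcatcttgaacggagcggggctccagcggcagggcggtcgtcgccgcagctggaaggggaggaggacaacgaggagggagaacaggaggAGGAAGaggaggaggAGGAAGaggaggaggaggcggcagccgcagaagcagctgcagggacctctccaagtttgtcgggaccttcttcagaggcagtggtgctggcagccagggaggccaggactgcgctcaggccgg
Tll1, minus strand, chr8:64205959-64206258: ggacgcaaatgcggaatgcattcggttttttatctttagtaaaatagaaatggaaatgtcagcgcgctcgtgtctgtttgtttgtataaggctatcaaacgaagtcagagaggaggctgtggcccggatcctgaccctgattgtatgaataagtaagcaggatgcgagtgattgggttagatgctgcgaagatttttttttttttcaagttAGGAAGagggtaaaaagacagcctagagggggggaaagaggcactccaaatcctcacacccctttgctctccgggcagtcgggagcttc
Rarb, minus strand, chr14:16575427-16575726: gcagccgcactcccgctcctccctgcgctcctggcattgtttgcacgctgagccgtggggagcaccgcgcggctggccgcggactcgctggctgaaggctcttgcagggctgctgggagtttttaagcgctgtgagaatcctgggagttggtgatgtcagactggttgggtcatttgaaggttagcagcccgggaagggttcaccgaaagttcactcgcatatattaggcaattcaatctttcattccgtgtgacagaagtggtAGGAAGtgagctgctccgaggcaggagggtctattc
AGGAAG was in 6 of the 15 promoters, against 35.4% of all 32851 promoters of the table, and AGGTCA in 1 of the 15, against 16.3%. Matches are letters in a window, and the share with AGGAAG was close to that of all promoters.

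Arterial genes ran the other way in part. Of 14 tested arterial markers edgeR called 5 lower in venous than in general capillary barcodes (against 1.75% of all genes) and 2 higher (against 2.93%), and DESeq2 called 2 lower and 1 higher. Efnb2 had 140, 142 and 157 CPM in venous barcodes and 353, 695 and 450 CPM in general capillary ones (log2 fold of -1.75, edgeR adjusted p = 0.000199). The secreted semaphorin Sema3g (log2 fold of -1.69), the Notch target Hey1 (-1.17), Sox17 (-0.90) and the chemokine Cxcl12 (-0.74) were the others called lower. Bmx, a kinase, and Mecom rose by 1.26 and 1.15. Both were higher in venous members without Slc6a2 than in those with it in each library, as given above for Mecom. Bmx had 13.7, 25.3 and 41.9 CPM in members with Slc6a2 and 26.6, 318 and 62.1 CPM in those without it. The part of members without Slc6a2 in these rises was not tested. DESeq2 did not call Hey1 (adjusted p = 0.221), Sox17 (0.0622), Cxcl12 (0.141) or Bmx (0.132). Foxc1, a forkhead factor of vessel development, had 37.3, 9.29 and 15.97 CPM in venous barcodes against 1.49, 2.96 and 3.07 CPM.

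Groups that act at the vessel wall held a few venous members each. Over all genes edgeR called 2.93% higher in venous and 1.75% lower. For adhesion and recruitment 4 of 15 tested genes were higher in venous and 1 lower (Cxcl12), with Icam1 at 461, 63.9 and 79.9 CPM against 161, 32.2 and 36.8 CPM (log2 fold of 1.28, edgeR adjusted p = 0.000611) and Jam2, a junctional adhesion molecule, higher by 1.52. For the Weibel-Palade list 3 of 21 were higher, namely Rab27a (log2 fold of 1.16), Myrip (1.00) and the Rab27 effector Sytl4 (2.33). Plat, tissue plasminogen activator, fell by 1.40 and Galnt18, a glycosyltransferase, fell by 0.69. DESeq2 did not call Cxcl12 (adjusted p = 0.141) or Plat (0.0624). Rab27a had 121, 518 and 256 CPM in venous barcodes against 54.0, 217 and 117 CPM. Entpd1 had 540, 1896 and 1075 CPM against 207, 722 and 381 CPM (log2 fold of 1.39, adjusted p = 3.2e-05) and was the only one of 15 tested clotting genes called higher in venous. F8, coagulation factor VIII, had 12.2, 18.6 and 29.3 CPM in venous barcodes against 9.24, 14.8 and 16.9 CPM.

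Of 19 tested genes of amine handling and tone 4 rose in venous and 1 fell, against 2.93% and 1.75% of all genes. Ptgis, prostacyclin synthase, had 104, 196 and 90.5 CPM in venous barcodes and 31.0, 20.7 and 38.4 CPM in general capillary ones (log2 fold of 2.17, edgeR adjusted p = 0.00107). The cyclooxygenases Ptgs1 and Ptgs2, which feed it, rose by 1.04 and 2.42, and Nos3, endothelial nitric oxide synthase, rose by 1.68. Maoa, which breaks down noradrenaline inside the cell, had 107, 53.4 and 69.2 CPM against 151, 94.4 and 132 CPM and fell by 0.72, which DESeq2 did not call (adjusted p = 0.133). Of the calcium and channel list, the cation channel Trpv4 rose by 2.05 on the log2 scale. The sodium-calcium exchanger Slc8a1 fell, with 71.7, 60.4 and 189 CPM in venous barcodes against 213, 140 and 368 CPM.

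Of 27 tested matrix genes edgeR called 3 higher and 4 lower, and of 20 BMP and TGF-beta genes 3 higher and 1 lower, against 2.93% and 1.75% of all genes. Eln, elastin, had 294, 499.6 and 447 CPM in venous barcodes and 102, 159 and 114 CPM in general capillary ones (log2 fold of 1.66, edgeR adjusted p = 1.72e-05), and Fbln5, which assembles elastic fibres, 73.8, 77.8 and 63.9 CPM against 15.8, 10.2 and 16.9 CPM (2.38). Col4a1 and Col4a2, the main basement membrane collagens, fell by 0.74 and 0.87, Sparc by 0.61 and Sparcl1 by 1.21, and Timp3, a protease inhibitor, rose by 1.46. Of the BMP and TGF-beta genes Tgfb2 (log2 fold of 2.41), Bmp4 (1.41) and the latent TGF-beta binding protein gene Ltbp4 (1.04) rose and Bmp6 fell by 1.10, with 834, 1765 and 1339 CPM in venous barcodes against 1380, 3282 and 4078 CPM. Vegfa fell by 0.67 and Angpt1, the ligand of the Tie2 receptor, by 1.21. DESeq2 did not call Sparc (adjusted p = 0.305) or Vegfa (0.097). Lyve1, best known from lymphatic endothelium, had 386, 144 and 114 CPM in venous barcodes against 125, 70.7 and 35.3 CPM (log2 fold of 1.39). Of 5 tested lymphatic genes edgeR called 3 higher in venous and 0 lower, and DESeq2 called 2 higher. Prox1 had 7, 2 and 1 counts in venous barcodes. The capillary set allowed no UMI of Prox1 and the venous rule had no such condition. This excess of lymphatic genes may therefore in part be set by the gates.

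The largest falls included Casc4, with 131, 123 and 90.5 CPM in venous barcodes and 253, 575 and 714 CPM in general capillary ones, a log2 fold of -1.94 (edgeR adjusted p = 0.00186). The transcription factors Tox3, Tox2 and Glis3 fell by 1.87, 1.96 and 1.89, and the sodium channel Scn7a by 1.77. Ntrk2, Fam13c, Zfp641, Sh3gl2, Glp1r, Mpped2 and Gprin3 were the other genes named by the rule, with log2 folds of -2.42 to -1.82, and DESeq2 did not call Glp1r (adjusted p = 0.383). For 11 of these 12 genes the fall was larger in nuclei than in cells by edgeR's interaction test, with values in the closing section. Of other markers, haemoglobin genes summed to 682, 332 and 98.5 CPM in venous barcodes against 2329, 377 and 114 CPM, type 2 pneumocyte genes to 2094, 3172 and 4198 CPM against 4693, 3633 and 5001 CPM, and immune genes to 2678, 540 and 799 CPM against 3800, 550 and 941 CPM. Their part in these falls was not tested. Of 30 tested immediate early genes and 13 heat shock genes, edgeR and DESeq2 each called 0 between venous and general capillary barcodes, with 6 immediate early and 0 heat shock genes at an unadjusted p under 0.05 in edgeR.

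**Figure D3:**
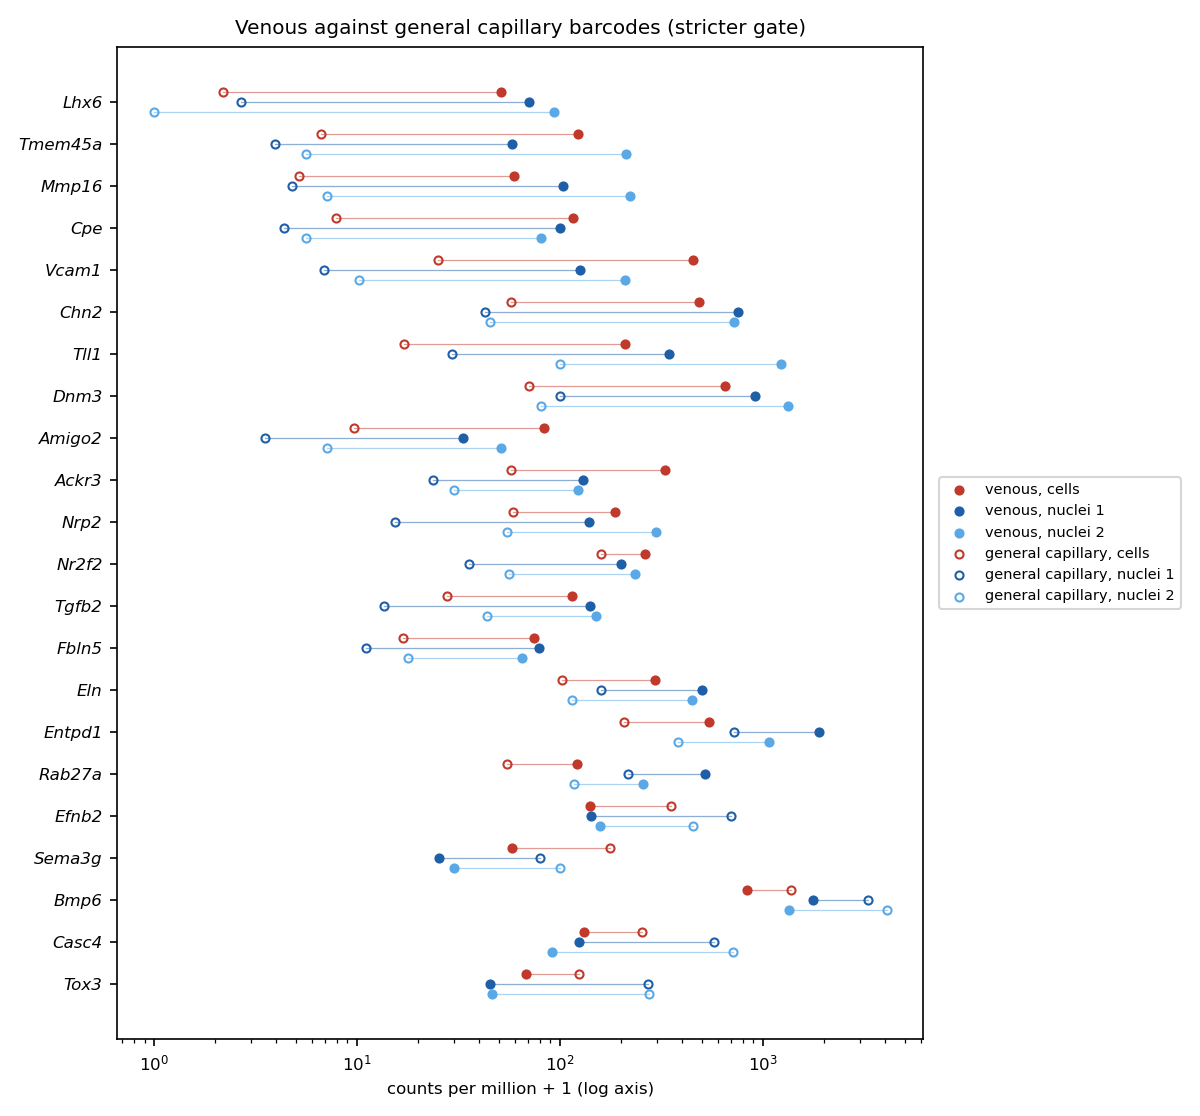
CPM + 1 (log axis) of named genes in venous barcodes (filled) and in stricter general capillary barcodes (open), joined within each library (red cells, dark blue nuclei 1, light blue nuclei 2). Lhx6 lies at 50.2, 69.7 and 93.2 CPM in venous barcodes and at 0 to 1.69 CPM in general capillary ones, and Efnb2, Sema3g, Bmp6, Casc4 and Tox3 lie lower in venous.

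Against arterial endothelium, the other large-vessel class, the comparison rests on few barcodes. Arterial barcodes were those with a UMI of Gja5 or Dkk2, at least 3 of 8 arterial genes and at least 2 of 6 endothelial genes, 58 cells and 59 and 51 nuclei. With the library as a block edgeR called 143 of 5588 genes higher in venous (2.56%) and 121 lower (2.17%), or 4.72% in all, and DESeq2 called 94 and 85. Without the cell library edgeR called 458 genes. Vwf, a gene of the rule, had 839 CPM in arterial cells and 2003 and 1981 CPM in arterial nuclei, so it is not particular to veins here.

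Lhx6 led again, with 165 UMIs in venous barcodes and 0 in arterial ones, at least 11.9-fold higher against a floor of 3 counts over the 3 arterial sums. Mmp16 had 253 UMIs against 1, a ratio of 54.8 with a counting interval of 9.75 to 2174, and Amigo2 162 against 1, a ratio of 35.1 (6.21 to 1395). In this comparison DESeq2 called Mmp16 and gave no adjusted p for Lhx6 or Amigo2. Rarb had 182, 139 and 540 CPM in venous barcodes and 15.6, 0 and 29.1 CPM in arterial ones (log2 fold of 4.29, edgeR adjusted p = 5.73e-05). Chrm3, the muscarinic M3 receptor through which acetylcholine relaxes vessels, had 315, 476 and 791 CPM against 36.5, 20.7 and 65.5 CPM (3.70). Dnm3 had 653, 912 and 1328 CPM against 62.5, 58.1 and 138 CPM (3.51), Lpcat2 was higher by 3.43, and Ackr3 had 328, 129 and 122 CPM against 36.5, 12.4 and 14.6 CPM (3.18). The rule for leading genes asked for 1 direction in every library.

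Nr2f2 had 261, 199.8 and 234 CPM in venous barcodes and 167, 41.5 and 87.4 CPM in arterial ones (log2 fold of 1.28, edgeR adjusted p = 0.0197). Nrp2 rose by 2.25, Cpe by 1.74 and Csrp2 by 1.14 (DESeq2 adjusted p = 0.0954), while Adgrg6, a venous marker against capillaries, fell by 1.43 with 202, 286 and 559 CPM in venous barcodes against 307, 896 and 1952 CPM. Of 12 tested genes of this list, chosen with earlier results of these data known, 6 were thus higher and 1 lower. Over all genes 2.56% were higher and 2.17% lower. Entpd1 (log2 fold of 1.90), Icam1 (1.34), Tgfb2 (1.95), Ptgs1 (2.40), Ptgis (1.62), Emcn, the sialomucin endomucin (1.61), and the mechanosensitive channel gene Piezo2 (1.42) were higher in venous. Entpd1, Icam1, Tgfb2, Ptgs1 and Ptgis were also called against general capillary barcodes. Both comparisons use the same venous sums.

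Arterial barcodes led in signalling and matrix genes. Prkg1, the cGMP-dependent kinase, had 532, 857 and 1302 CPM in venous barcodes and 2193, 9315 and 12226 CPM in arterial ones (log2 fold of -2.95, edgeR adjusted p = 3.42e-05). Efna5, ephrin-A5, had 15.1, 112 and 58.6 CPM against 203, 900.0 and 553 CPM (-3.27), and Atp13a3, a polyamine transporter, 59.5, 138 and 264 CPM against 287, 1684 and 2126 CPM (-3.06). Slc45a4, Fads2 (a fatty acid desaturase), Esr2 (oestrogen receptor beta), Olfm2, Lama3 (a laminin chain) and Pde1c (a phosphodiesterase) had log2 folds of -3.76 to -3.10. Mecom fell by 1.94, with 273, 904 and 1379 CPM in venous barcodes against 834, 3654 and 5767 CPM, so venous levels lay above capillary and below arterial ones in each library. Angpt1 (log2 fold of -2.54), Plat (-2.25), Slc8a1 (-2.16), Fbn1, fibrillin-1 (-1.74), Ltbp4 (-1.21) and Smad6, an inhibitor of BMP signalling (-1.17), were lower in venous too.

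**Figure D4:**
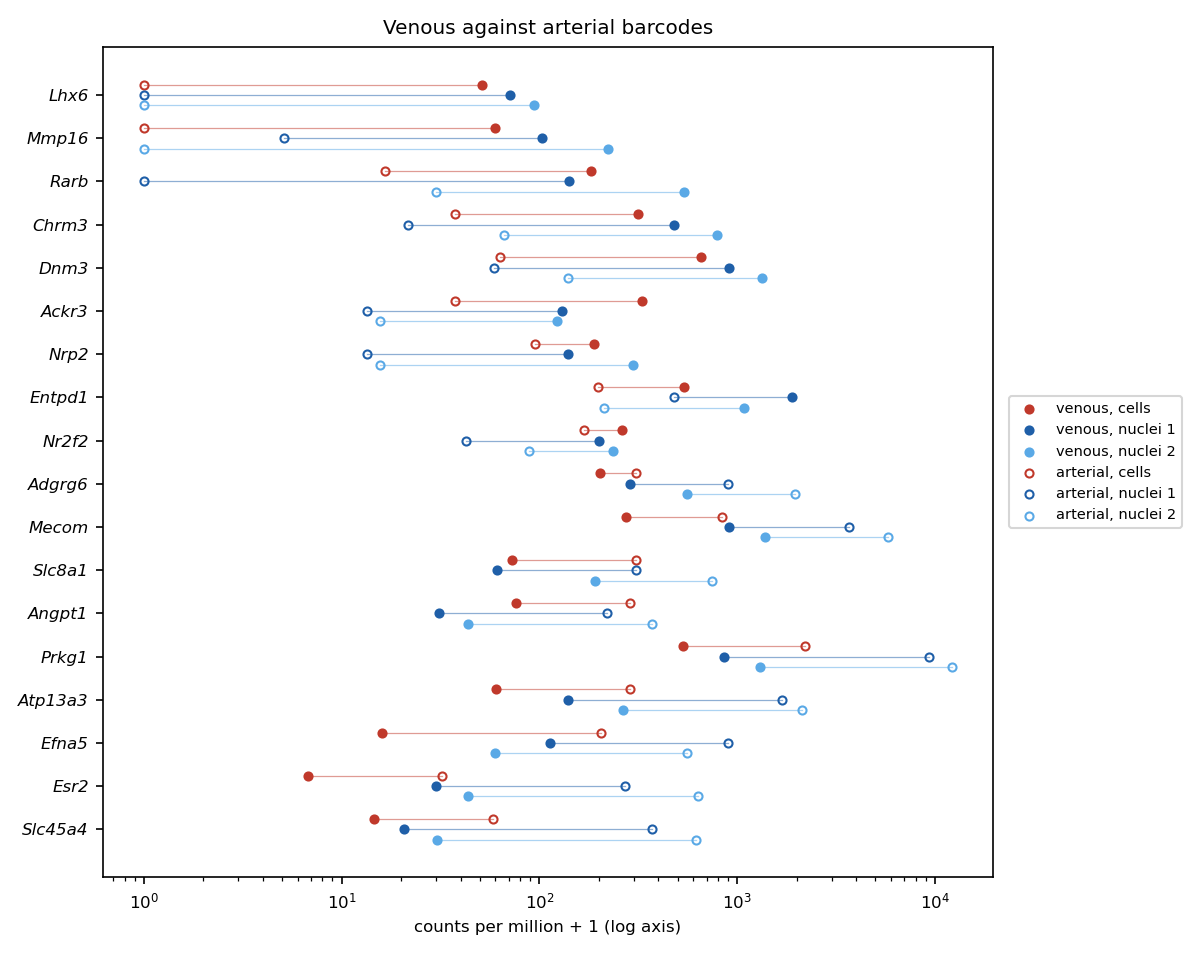
CPM + 1 (log axis) of named genes in venous barcodes (filled) and in arterial barcodes (open), joined within each library (red cells, dark blue nuclei 1, light blue nuclei 2). Lhx6 has 0 counts in all 3 arterial sums, and Prkg1 lies at 532 to 1302 CPM in venous barcodes and at 2193 to 12226 CPM in arterial ones.

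The venous over capillary fold was also compared between the preparations, which asks whether cells and nuclei read venous identity alike. Of 10119 genes edgeR's interaction test called 163 (1.61%), with the fold higher in cells for 44 (0.435%) and lower for 119 (1.18%), against 25 of 12506 (0.2%) with the first capillary set, and with DESeq2's size factors it called 58. Of the genes named for the venous over capillary comparison 19 were called, Nr2f2, Nrp2, Adgrg6 and Mecom among them. These calls are fragile too, since edgeR again treated the spread as the same for all genes at a given level. Nr2f2 was higher in venous by a log2 ratio of 0.72 in cells and of 2.53 and 2.08 in nuclei. In cells general capillary barcodes held 158 CPM of Nr2f2, and B cell barcodes 78.8 CPM. In nuclei general capillary barcodes held 34.7 and 55.3 CPM, and B cell barcodes 37.1 and 78.7 CPM. The part of free RNA in this difference was not tested.

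**Figure D5:**
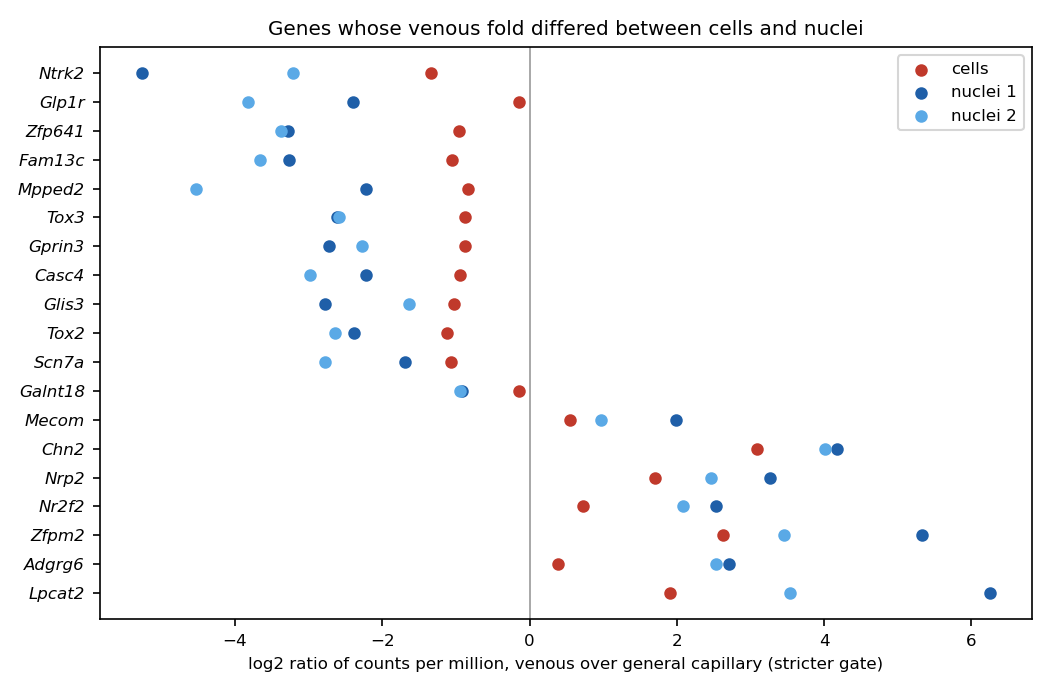
Log2 ratio of CPM, venous over stricter general capillary barcodes, in cells, nuclei 1 and nuclei 2 for the 19 described genes whose ratio differed between cells and nuclei by edgeR's interaction test. In each of the 19 rows the cell library lies nearer 0 than both nucleus libraries, as for Adgrg6 at 0.38 in cells and 2.71 and 2.53 in nuclei.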

How the data were processed

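Single-cell and single-nucleus 10x libraries (3 prime, version 3 chemistry) of mouse lung were deposited as UMI counts per gene and barcode, in a table of cells and a table of both nucleus libraries, already filtered by the authors. Per the submitters' processing notes STAR 2.5.3a and the build mm10 were used. Not given in the sources used here: the counting program, its annotation and whether intronic reads were counted.

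The deposited counts held 11934 cells and 6849 and 9806 nuclei, with 35962788, 28062109 and 27148272 UMIs, and 21507 genes shared by both tables were used. Of the other genes, 1081 in the cell table and 1133 in the nucleus table were left out. Counts were summed per library and barcode set and tested with edgeR 4.0.16 (TMM, filterByExpr, quasi-likelihood test, Benjamini-Hochberg adjustment, R 4.3.3), called at an adjusted p under 0.05. The model was preparation for cells over nuclei, with 1 residual degree of freedom, and library plus set for venous over capillary or arterial, with 2. Standard errors were derived from the F statistic. DESeq2 1.42.0 was an alternative, as were other gates, thinning to 1000 UMIs and leaving out libraries. In counts simulated from these libraries for cells over nuclei (10595 genes run), edgeR recovered 10% of 2-fold, 56% of 4-fold, 88% of 8-fold and 92% of 16-fold changes. The simulation gave all genes 1 common spread and changed 200 of them, with 7 false calls. The changed genes were drawn only from those above a minimum mean CPM, so the rates leave out genes of low level. These rates hold for that setting and may not carry over to the deposited counts.

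Genes were named from gene lists and, beyond these, as the leading 12 in each direction (8 against arterial) by log2 fold, with at least 2-fold, at least 50 CPM in the higher group and 1 direction in every library. The members and lists were chosen with earlier results of these data known. A doublet caller written after Scrublet (Python 3.11.15) marked 0 of 11934 cells and 35 and 5 nuclei, was judged not to have worked, and removed nothing. The same libraries serve both barcode sets, so the library pairs them. Intervals are exact binomial and, like floors of 3 counts, cover counting error only. The genes of the rule are described without a test.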

Additional observations from a re-analysis of the deposited data

Results flagged for a closer look

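For 19 of the genes named in the venous over general capillary comparison (stricter set), the log2 fold differed between cells and nuclei by edgeR's interaction test. The values here are the fold in cells minus that in nuclei, with 1 residual degree of freedom. In each of the 19 the ratio lay nearer 0 in the cell library than in both nucleus libraries. With DESeq2's size factors the test called 58 genes in all in place of 163, and which of the 19 stayed called is not given here. The prior degrees of freedom that edgeR estimated were infinite, and 21.7 with DESeq2's size factors. An infinite value means that the spread was taken as the same for all genes at a given level, so these calls are fragile.

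Among genes higher in venous, the difference was -1.61 for Nr2f2, -1.15 for Nrp2, -2.22 for Adgrg6, -0.92 for Mecom, -0.996 for Chn2, -1.79 for Zfpm2 and -3.38 for Lpcat2. Adgrg6 had a log2 ratio of 0.38 in cells and of 2.71 and 2.53 in nuclei. Lpcat2 had 1.91 in cells and 6.25 and 3.53 in nuclei.

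Among genes lower in venous, the difference was 3.21 for Ntrk2, 2.69 for Glp1r, 2.37 for Zfp641, 2.36 for Fam13c, 2.03 for Mpped2, 1.76 for Tox3, 1.74 for Gprin3, 1.58 for Casc4, 1.38 for Glis3, 1.33 for Tox2, 1.18 for Scn7a and 0.80 for Galnt18. Glp1r, the receptor of the incretin GLP-1, had a log2 ratio of -0.14 in cells and of -2.40 and -3.83 in nuclei. Of 4 haemoglobin genes all 4 had a lower fold in cells by the same test, as did 3 of 8 type 2 pneumocyte genes, against 1.18% of all genes. The part of free RNA or of other cells in these differences was not tested.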

How the results depend on the processing

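No named gene changed direction with a call under the alternatives run for its comparison. Against the stricter capillary set these were DESeq2, its size factors, no filter, no library block and leaving out each library, and other gates, thinning and doublets were not run for it. The 1886 genes called for venous cells over venous nuclei became 354 with DESeq2, 896 with barcodes thinned to 1000 UMIs, 265 with at least 4 of the 9 genes, and 0 with at least 1 Vwf UMI or without the filter on low counts. Of called genes 75.3% were higher in cells, against 92.9% with DESeq2 and 97.7% with at least 4 of the 9 genes. The prior degrees of freedom that edgeR estimated were infinite at first, 3.23 with at least 1 Vwf UMI, 4.43 with at least 4 genes and 1.21 without the filter. Leaving out a nucleus library gave no test there. No paired analysis of cells with nuclei was possible, because there was 1 cell library and the labels link it to no nucleus library.

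Without the filter on low counts the calls were 2104 in place of 1105 against the first capillary set, 877 in place of 473 against the stricter set, 459 in place of 264 against arterial barcodes, and 275 in place of 25 for the interaction with the first set. Leaving out 1 library gave 848 to 999, 226 to 486 and 251 to 458 calls in those 3 comparisons of types, with 458 against arterial barcodes without the cell library. Thinning left 166 calls against arterial barcodes. Without the library block, which pairs the sums of 1 library, 1, 4 and 0 genes were called. The interaction with the stricter set gave 58 calls with DESeq2's size factors in place of 163. The share of called genes higher in venous against the stricter set was 62.6%, against 48.3% without the filter and 73.9% without nucleus replicate 1. For arterial barcodes it was 54.2%, against 67.8% without the filter. The causes were not tested.

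The venous share was 4.41% of cells with at least 1 Vwf UMI. With at least 4 of the 9 genes it was 2.85% of cells and 1.72% and 0.806% of nuclei, and with at least 2 of the 9 it was 5.18%, 4.86% and 2.39%. Thinned, it was 1.37%, 0.906% and 0.628%, and of endothelial barcodes it was 6.29%, 5.03% and 4.09%.

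The stricter capillary set, leaving out the 5% of barcodes with the highest doublet scores and leaving out the 20% with most markers of other cells were chosen after seeing the data. The planned limit of 2 UMIs of such markers left 4 venous cells and 0 and 1 nuclei and was not run.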
